A study of Mus musculus with 64 samples.

Results

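The 6 MES LN and 9 MES MASS tumours of the PiggyBac (PB) screen were compared, that is 15 of the 30 PB tumours and 15 of the 64 samples of the series. MES LN are tumours taken from mesenteric lymph nodes and MES MASS are tumours labelled as mesenteric masses, all of them diffuse large B cell lymphomas by the study's description. The tumours were picked by their tissue label, with no threshold on a measured value. Every mouse of both groups carried the PB transposase knocked into Rosa26, which is active in all tissues, and an ITP transposon line, in which an array of transposon copies lies at a donor locus. By the study's methods, all mice had a mixed genetic background of several inbred strains, and the Blm m3 allele is named there for the crosses of the other transposon system, while for the PB mice no Blm genotype is given in the sources used here. The 12 PB TAIL samples, tail tissue of mice of the same kind, were the control tissue. Ages, the ITP line of each mouse and the share of tumour cells in a sample were not given in the sources used here, and the data hold no expression values with which the tissue label could be checked. In a bulk sample, an insertion with many reads can lie in many cells or be amplified well, and these cannot be told apart.

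PB cuts its transposon out of the donor array and inserts it at TTAA motifs elsewhere in the genome. The transposon can switch a gene on from its promoter or trap the transcript of a gene it lies in, so a cell with an insertion that favours its growth expands, and its insertion is read more often and is found in more mice than chance placement gives. Diffuse large B cell lymphoma arises from mature B cells, many of which have passed the germinal centre of a lymph node or of gut lymphoid tissue, where mesenteric nodes receive the lymph of the intestine.

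Gna13 and Fas carried the strongly read insertions that recurred most among the named genes, and their target sites are shown for that reason. Gna13 encodes the G protein subunit that keeps germinal centre B cells confined to their follicle, and Fas encodes the death receptor through which such cells are removed. An insertion was counted as top-10 when it was among the 10 insertions with most reads in its sample. The sequences are from GRCm38 (mm10), plus strand, with the TTAA motif in capitals and 13 bases on each side. Both genes lie on the plus strand and all these sites are intronic.
Gna13 in MES MASS 7, chr11:109364297-109364326: gatttctgagtggTTAAggagtcaccctat
Gna13 in MES LN 3, chr11:109366409-109366438: agaccaggtagccTTAAactgatagcaacc
Gna13 in MES LN 6, chr11:109368753-109368782: tcttacattttccTTAAgatgagtgagtgc
Gna13 in MES LN 4, chr11:109369356-109369385: ttctgtaaacagtTTAActttgtcagcatt
Gna13 in MES LN 5, chr11:109370011-109370040: ggtgacaggtttaTTAAataagaaagtgat
Gna13 in MES MASS 2, chr11:109378345-109378374: gtgcactttttacTTAAgccagagtcttag
Gna13 in MES LN 1, chr11:109378537-109378566: cacctcagaacgcTTAAgagaggatctgga
Gna13 in MES MASS 9, chr11:109381517-109381546: tgagggctcatttTTAAgagactatataaa
Fas in MES MASS 3, chr19:34312314-34312343: tatttcagttcccTTAAacagcagtgctgt
Fas in MES MASS 5, chr19:34319418-34319447: attagcactttctTTAAaacaaatgcaatt
Fas in MES MASS 4, chr19:34319445-34319474: attagcactttctTTAAaacaaattcaagt
Fas in MES MASS 2, chr19:34321830-34321859: tgtgtaaatttttTTAAatgagatataatg
Fas in MES MASS 7, chr19:34321879-34321908: atataatggctttTTAAgtcatcaaagtaa
Fas in MES MASS 8, chr19:34322578-34322607: ctgcctttatatgTTAAtgaccatgtcacc
Fas in MES LN 3 and MES MASS 3, chr19:34322604-34322633: caccttactgcttTTAAtattctttctttg
The 8 Gna13 sites differed in all 8 tumours and lay between 1.52 and 18.7 kb from the start of the gene (chr11:109362794-109401369). The 7 Fas sites lay between 21.7 and 32.0 kb from its start (chr19:34290647-34327775), and 6 of them fell in a stretch of 3.19 kb towards its end. The site with 3305 reads in MES LN 3 and 7149 reads in MES MASS 3 was one position, which also had 1678 reads in CERV LN 1, another PB tumour, with the transposon on the plus strand in each. The sites of MES MASS 5 and MES MASS 4 were 27 bases apart and had 28 of 30 letters in common.

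Gna13 was hit in every MES LN tumour, in MES LN 2 by 1 insertion with 2 reads, the lowest count listed. It had 5, 1, 2, 4, 5 and 2 unique insertions in MES LN 1 to 6, and 0, 5, 1, 0, 5, 4, 5, 1 and 2 in MES MASS 1 to 9. A top-10 Gna13 insertion was found in 5 of 6 MES LN tumours and 3 of 9 MES MASS tumours, and it was the most covered insertion of MES LN 3, MES LN 5, MES LN 6, MES MASS 2 and MES MASS 9. The reads on Gna13 made up 1.54, 0.00199, 5.96, 3.79, 6.19 and 1.90% of the reads of MES LN 1 to 6. In the masses these shares were 0, 10.9, 0.0415, 0, 1.40, 3.23, 3.46, 0.00207 and 11.0%. The groups overlapped, with the highest shares in MES MASS 9 and MES MASS 2 and the lowest in MES MASS 1 and MES MASS 4. The difference in top-10 presence did not pass the two-sided Fisher exact test (p = 0.119, and 0.594 after Benjamini-Hochberg adjustment over the 10 genes with a top-10 insertion in 2 or more of the tumours). Among the 50 most covered insertions, Gna13 was present in 5 of 6 and 5 of 9 tumours (Fisher exact p = 0.58). In unique insertions per 1000, MES LN had 0.683 ± 0.349 (SD, n = 6) and MES MASS 0.474 ± 0.412 (SD, n = 9), a log2 difference of 0.27 ± 0.54 (SE; edgeR quasi-likelihood test, adjusted p = 0.999).

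Fas showed the opposite order in its most covered insertions. It was among the top-10 in 1 of 6 MES LN tumours and 6 of 9 MES MASS tumours (two-sided Fisher exact test, p = 0.119, adjusted 0.594 over the same 10 genes). Its share of reads was 0.463, 0.00199, 2.99, 1.42, 1.31 and 1.09% in MES LN 1 to 6. In MES MASS 1 to 9 it was 0.000720, 6.01, 8.22, 14.2, 1.16, 1.31, 2.96, 3.65 and 1.53%. The 4 highest shares were all of masses, while MES MASS 1 had the lowest of the 15, so the groups overlapped. Over the 50 most covered insertions, 4 of 6 and 8 of 9 tumours held Fas (Fisher exact p = 0.525). Unique insertions ran from 1 to 2 per MES LN tumour and from 1 to 5 per MES MASS tumour, and the log2 difference was -0.43 ± 0.63 (SE; edgeR, adjusted p = 0.999).

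Fas insertions lay mostly towards the end of the gene in both groups. Of 9 insertions in MES LN, 7 lay beyond 28 kb from the gene start, as did 12 of 18 in MES MASS. Among the insertions with at least 10 reads these were 5 of 5 and 9 of 12. The distance of 28 kb was chosen after the positions were seen. Transposons lay on the strand of the gene in 8 of 9 Fas insertions in MES LN and 10 of 18 in MES MASS. In Gna13 these were 11 of 19 and 18 of 23. A position was counted in each sample that listed it, and some Fas positions had more reads in another PB sample. When each position was kept only in the sample with most reads, Fas was hit in 3 of 6 MES LN and 8 of 9 MES MASS tumours in place of all 15, and Gna13 in 6 of 6 and 7 of 9 as before.

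**Figure D1:**
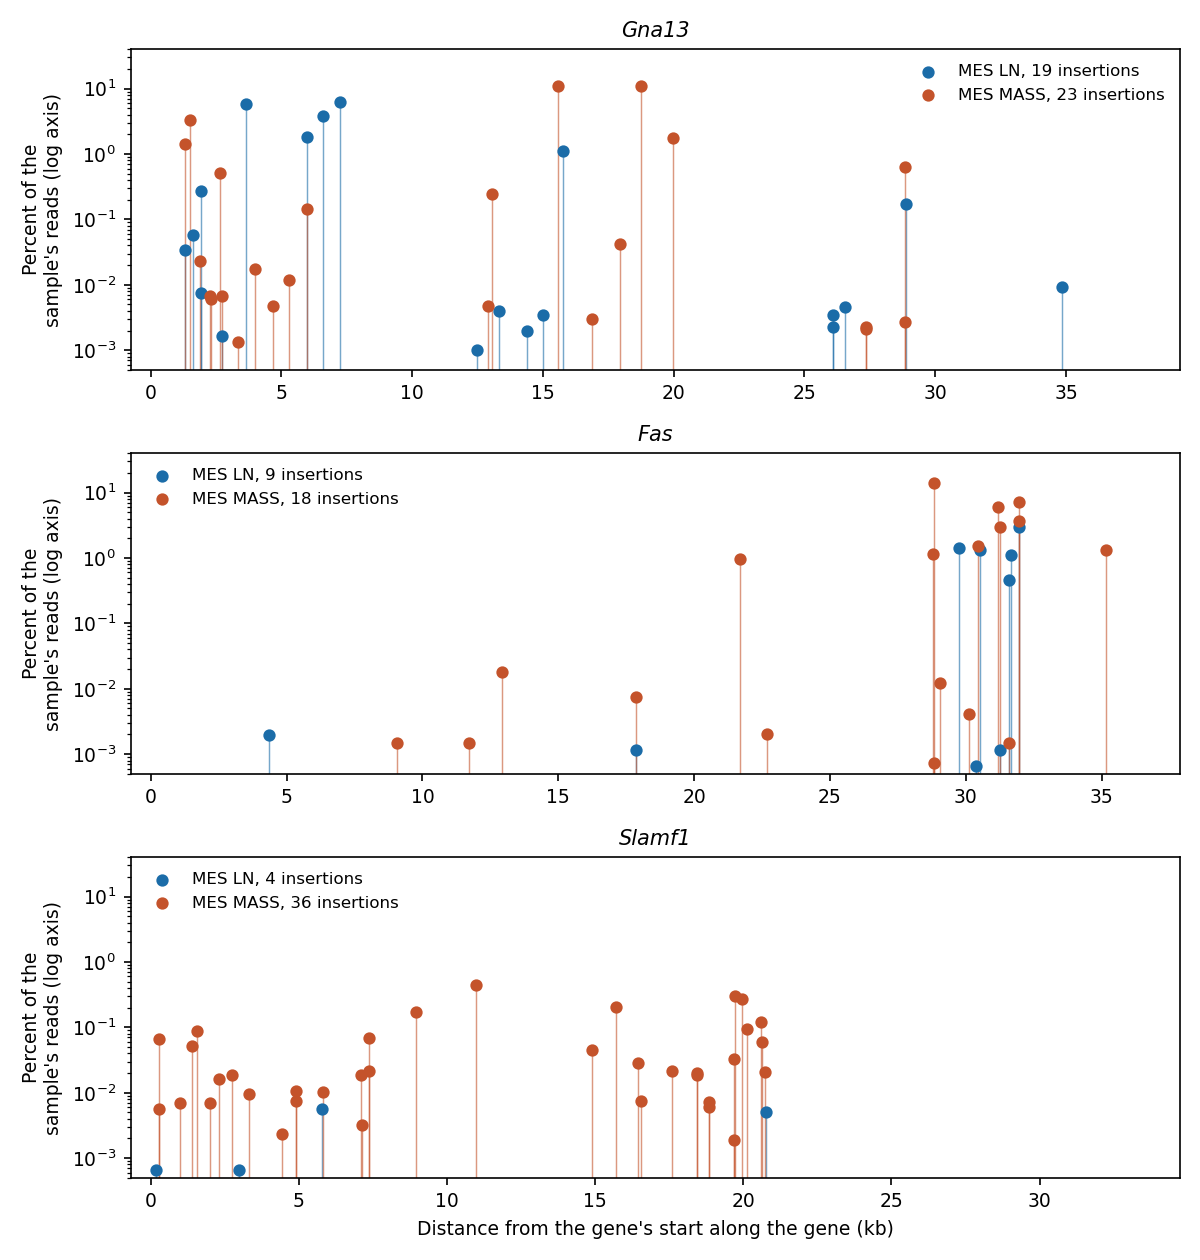
Insertions in Gna13, Fas and Slamf1 by distance from the start of the gene along the gene (x axis, kb) and percent of the sample's reads on that insertion (y axis, log scale), with 1 point per insertion and sample, MES LN in blue and MES MASS in orange. Strongly read Fas insertions of both groups crowd beyond 28 kb. Gna13 insertions run from 1.31 to 34.9 kb, and those among the top-10 from 1.52 to 18.7 kb. Slamf1 holds 36 insertions of masses and 4 of nodes, none above 0.451% of reads.

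Reads were concentrated on few insertions in both groups. The 10 most covered insertions held 10.3, 61.0, 32.4, 29.0, 32.4 and 14.2% of the reads of MES LN 1 to 6. In MES MASS 1 to 9 they held 52.0, 22.7, 15.3, 92.5, 9.51, 19.8, 30.7, 27.1 and 42.7%. The lowest and the highest of the 15 values were both of masses. The means were 29.9 ± 17.9% (SD, n = 6) and 34.7 ± 25.4% (SD, n = 9), and the difference of -4.81 ± 11.2 percentage points (SE) did not exceed the spread between samples (exact permutation test, two-sided, p = 0.747). The effective number of insertions, the inverse Simpson index of the read shares, ran from 16.0 to 251 in MES LN (median 66.6) and from 9.77 to 266 in MES MASS (median 71.5), with a log2 difference of 0.42 ± 0.81 (SE; exact permutation p = 0.619). MES MASS 4 stood at one end of both measures, with 757 insertions in all and 92.5% of its reads on 10 of them.

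**Figure D2:**
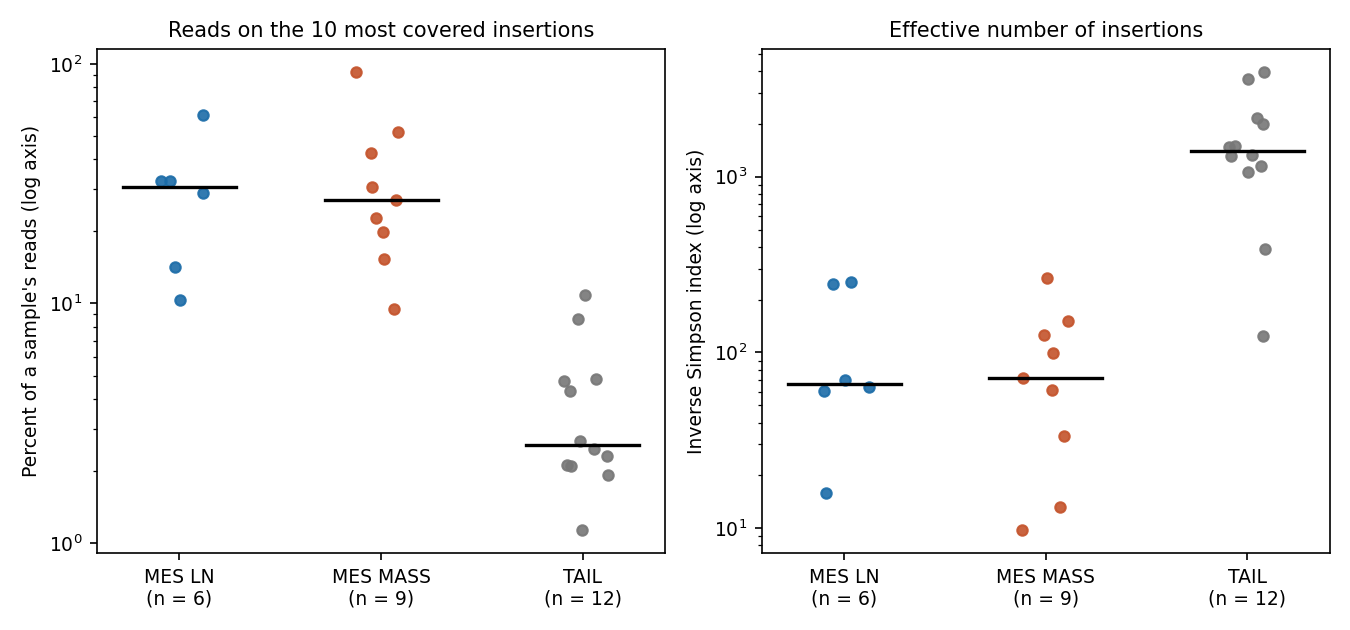
Percent of a sample's reads on its 10 most covered insertions (left, log axis) and effective number of insertions (right, log axis) in 6 MES LN, 9 MES MASS and 12 TAIL samples, with 1 point per sample and a line at the median. The tumour groups overlap, with medians of 30.7 and 27.1% on the left, and the tails have a median of 2.56%.

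In the tails the 10 most covered insertions held 4.01 ± 2.96% of reads (SD, n = 12), between 1.13 and 10.9%. Of the MES LN tumours, 5 of 6 exceeded the highest tail, and of the MES MASS tumours 8 of 9. The difference from the tails was 25.9 ± 7.38 percentage points for MES LN (SE; two-sided exact permutation test, p = 2.16e-04) and 30.7 ± 8.50 for MES MASS (SE; exact permutation p = 1.36e-05). The same 12 tails entered both comparisons. Sample names came in a joined and a separated form, which may mark a batch, and within the joined names the differences were 28.7 (4 tumours, 5 tails, exact permutation p = 0.0159) and 30.2 percentage points (7 tumours, 5 tails, exact permutation p = 0.00253). Within the separated names, with 2 tumours of each group and 7 tails, the differences were 19.7 and 31.2 percentage points (exact permutation p = 0.0556 in both cases, the smallest two-sided p that this number of samples allows).

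No difference in the number or placement of insertions passed its test. MES LN had 5118 ± 2818 unique insertions per sample (SD, n = 6) and MES MASS 5006 ± 2520 (SD, n = 9), a difference of 112 ± 1425 (SE; exact permutation p = 0.94). Reads per sample ran from 100657 to 298875 and from 84981 to 277704 (exact permutation p = 0.712). Insertions with at least 10 reads were as few as 242 in MES MASS 4 and as many as 2883 in MES MASS 1. Reads were amplified without molecular identifiers, so they are not counts of separate molecules or of cells. In gene bodies lay 59.0 ± 2.0% of the insertions of MES LN and 59.3 ± 1.96% of those of MES MASS (SD, n = 6 and 9; exact permutation p = 0.749), against 42.5% of all TTAA sites of the same chromosomes. The mean distance from an insertion to its nearest transcription start was 100.1 ± 11.5 and 102 ± 5.06 kb (SD, n = 6 and 9; exact permutation p = 0.635), against 170.5 kb for all TTAA sites. The base preference of PB around the motif, over 10 bases on each side, was 0.422 ± 0.0279 bits in MES LN and 0.420 ± 0.0258 bits in MES MASS (SD, n = 6 and 9; exact permutation p = 0.898). All 7 of these sample-level measures, the read total and the read concentration included, had an adjusted p of 0.94 (Benjamini-Hochberg). Over 18 autosomes, the share of insertions on a chromosome passed the exact permutation test on none, with or without Benjamini-Hochberg adjustment (0 of 18 in both cases).

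No gene differed between the groups in unique insertions after adjustment. Of 1119 genes with at least 10 insertions over the 15 tumours, 0 had an adjusted p below 0.05 with more insertions in MES LN (0%) and 0 with more in MES MASS (0%; edgeR quasi-likelihood test, Benjamini-Hochberg). Without adjustment, 11 genes (0.983%) were higher in MES LN and 27 (2.41%) higher in MES MASS at p below 0.05. DESeq2 also called 0 genes after adjustment, with 2 and 8 at an unadjusted p below 0.05. The median log2 difference over all genes tested was 0.0016. The genes below are those with the smallest p in each direction, and none of their differences passed the threshold.

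Towards MES LN the smallest p belonged to Bach2, a transcriptional repressor of the B lineage. It had 4, 5, 0, 8, 4 and 1 insertions in MES LN 1 to 6 and 0, 0, 2, 0, 0, 3, 3, 3 and 0 in MES MASS 1 to 9. Insertions were thus found in 5 of 6 and 4 of 9 tumours, and the ranges overlapped. Per 1000 insertions of the sample, the values were 0.750 ± 0.552 (SD, n = 6) and 0.194 ± 0.238 (SD, n = 9), a log2 difference of 1.52 ± 0.58 (SE; edgeR, unadjusted p = 0.00885, adjusted p = 0.999). Against the expectation from its TTAA sites, described below, Bach2 had 22 insertions where 4.42 were expected in MES LN and 11 where 6.30 were expected in MES MASS. These insertions were weakly read. The reads on Bach2 made up at most 0.038% of the reads of a MES LN tumour and at most 0.054% of those of a MES MASS tumour. In MES LN 1 its 4 insertions held 0.00435% of the reads, and in MES LN 4 its 8 insertions held 0.0155%. Klhl6, an adaptor of a ubiquitin ligase that acts in B-cell receptor signalling, had 9 insertions in 4 MES LN tumours and 2 in 2 MES MASS tumours. The phosphatase regulatory subunit Ppp2r2b had 11 in 5 and 3 in 3, and the ubiquitin ligase Rnf115 had 8 in 5 and 2 in 2. Ptk2, the focal adhesion kinase, had 16 insertions in 5 MES LN tumours and 9 in 6 MES MASS tumours. The other genes of this end were Phtf2 (12 and 4 insertions), Sdccag8, a centrosomal protein (16 and 8), Gpatch8 (9 and 3), Dab1, an adaptor of reelin signalling (14 and 7), and Ascc3, a helicase subunit (15 and 8).

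Towards MES MASS the smallest p belonged to Slamf1, which encodes the CD150 receptor of lymphocytes (chr1:171767131-171801184). MES LN 1 to 6 had 2, 0, 0, 0, 1 and 1 insertions, and MES MASS 1 to 9 had 1, 23, 4, 0, 0, 0, 5, 2 and 1. The log2 difference was -2.52 ± 0.67 (SE; edgeR, unadjusted p = 1.71e-04, adjusted p = 0.191). MES MASS 2 alone held 23 of the 36 insertions of the masses. Without it, the log2 difference was -1.21 (edgeR, adjusted p = 0.978). Without MES MASS 6 the adjusted p was 0.0411 and Slamf1 was the only gene past the threshold, and leaving out any other tumour gave an adjusted p between 0.0518 and 0.978. The neighbouring receptor gene Slamf6 had 5 insertions in 3 MES LN tumours and 20 in 7 MES MASS tumours, 9 of them in MES MASS 8. With each shared position kept only in the PB sample with most reads, Slamf6 had 3 insertions in 3 MES LN tumours and 10 in 3 MES MASS tumours. In MES MASS 2, a pair of Slamf6 positions 4 bases apart with 485 reads each stood among its top-10.

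Of the other genes towards MES MASS, 4 had 0 insertions in all 6 MES LN tumours. These were Elk3, an ETS family transcription factor, with 10 insertions in 7 MES MASS tumours, Rai14, an actin-binding protein, with 10 in 5, the synapsin gene Syn3 with 11 in 5, and the calcium channel gene Ryr2 with 11 in 6. These genes reached the minimum of 10 insertions through the masses alone, and each had an adjusted p of 0.484 (edgeR). From the TTAA sites, 0.958 insertions were expected in the masses for Elk3, 2.81 for Rai14, 6.66 for Syn3 and 11.9 for Ryr2. In the nodes, where 0 were found, 0.631 were expected for Elk3, 1.97 for Rai14, 4.38 for Syn3 and 8.28 for Ryr2. Pdss2, of ubiquinone synthesis, had 2 and 18 insertions, the methyltransferase gene Smyd3 had 4 and 22, and the transcription factor gene Nfib 2 and 16. The phosphatase gene Ptpn1 and the calcium channel gene Cacna1c each had 1 insertion in MES LN and 11 in MES MASS. For Ptpn1, 0.339 insertions were expected in the nodes and 0.498 in the masses.

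**Figure D3:**
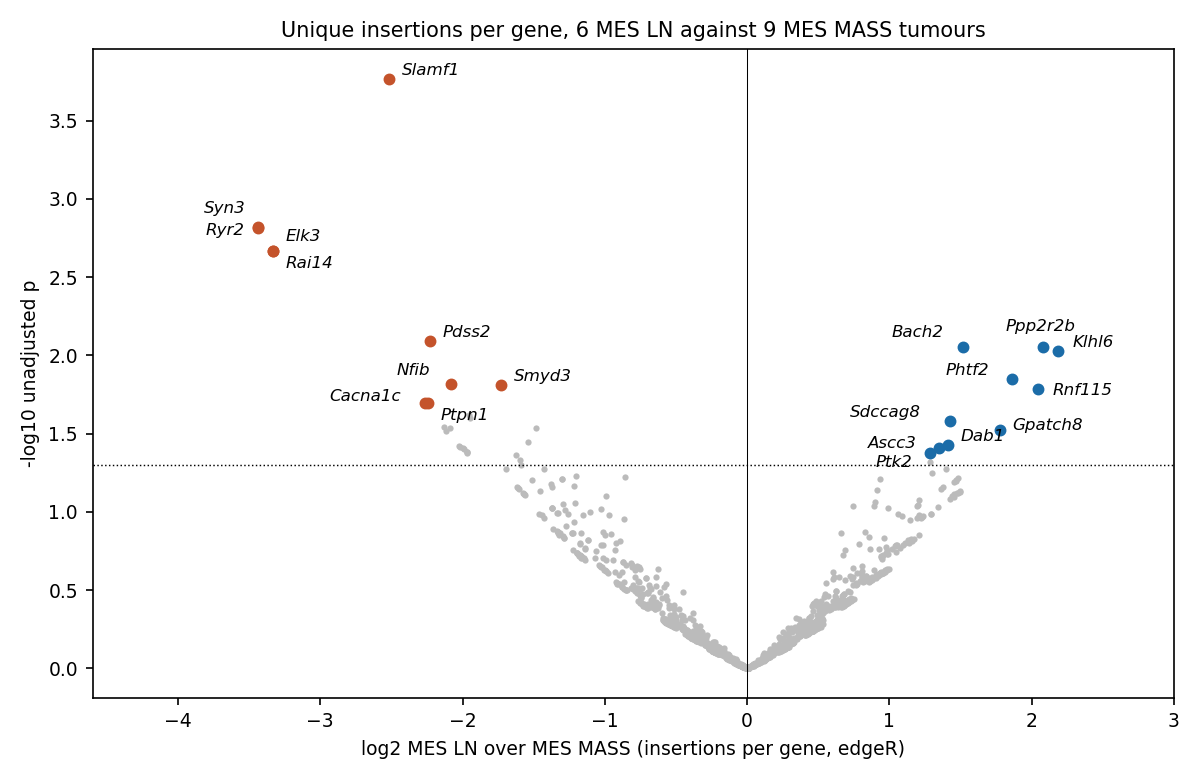
Log2 difference of unique insertions per gene, MES LN over MES MASS (x axis), against -log10 of the unadjusted edgeR p (y axis) for the genes tested. The dotted line marks an unadjusted p of 0.05, the 10 genes with the smallest p towards MES LN are blue and those towards MES MASS orange, and none passed an adjusted p of 0.05.

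Each group was then compared with the number of insertions that the TTAA sites of a gene lead to expect. The test was the Wald test of a Poisson rate, taken one-sided, with Bonferroni correction over 22211 genes and a minimum of 3 samples hit. It called 254 genes in MES LN (1.14%) and 391 in MES MASS (1.76%). The expectation counts TTAA sites alone, so a preference of PB for genes or open chromatin also enters the calls. On average 59.0% of insertions in MES LN and 59.3% in MES MASS lay in gene bodies, against 42.5% of TTAA sites. By the paper, modelling such preferences lowered the number of genes called in the PB tumours. Selection and preference were not separated here. The 9 masses held 45050 insertions against 30705 in the 6 nodes, so the numbers of calls cannot be set against each other. The lists shared 122 genes, which were 48.0% of the MES LN list and 31.2% of the MES MASS list. Of the 132 genes called in MES LN alone, 122 had at least 1 insertion in MES MASS, so a call in one group is not shown to differ from the other. An exact Poisson test called 100 and 157 genes.

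In MES LN the smallest p belonged to Mef2c, a transcription factor of B-cell activation, with 57 insertions against 3.71 expected, in 6 of 6 tumours (Wald, Bonferroni p = 1.5e-90). It had 6, 10, 3, 28, 8 and 2 insertions in MES LN 1 to 6 and 54 in the masses, between 1 and 24 a tumour, also in every tumour (5.33 expected). Ptprc, which encodes the phosphatase CD45, had 42 and 59 insertions, and was hit in 6 of 6 and 9 of 9 tumours. Tox, a nuclear factor of lymphocyte development, had 55 in 5 MES LN tumours, 28 of them in MES LN 1, and 45 in 8 MES MASS tumours. Hnrnpa2b1, an RNA-binding protein, had 14 insertions against 0.225 expected in MES LN and 9 against 0.334 in MES MASS. Gna13 had 19 against 0.756 (Bonferroni p = 7.8e-41) and 23 against 1.02 (2.1e-46). The glucocorticoid receptor gene Nr3c1, Zcchc7, Erp44, Basp1, Ankrd11, the splicing factor gene Mbnl1 and Pou2f2, which encodes the B-cell factor Oct-2, completed the 12 smallest p in MES LN. Of the 23 Basp1 insertions in MES LN, 16 were in MES LN 4, and of the 14 in Pou2f2, 9 were in MES LN 1.

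In MES MASS, Slamf1 had 36 insertions against 0.554 expected in 6 of 9 tumours (Bonferroni p = 2.4e-134), again with MES MASS 2 at 23. Ebf1, which specifies the B lineage, had 86 against 11.0 expected, in 9 of 9 tumours, and 34 against 8.12 in 4 of 6 MES LN tumours. Its values were 13, 0, 1, 16, 4 and 0 in MES LN 1 to 6 and 5, 13, 6, 2, 5, 31, 14, 9 and 1 in the masses, and the log2 difference was -0.86 ± 0.46 (SE; edgeR, adjusted p = 0.999). Ikzf1, which encodes Ikaros, had 37 insertions against 2.03 expected. Cd74, the invariant chain of MHC class II, had 11 against 0.101 in 5 of 9 tumours, while in MES LN it had 2, both in MES LN 1. With each shared position kept only in the PB sample with most reads, Cd74 had 5 insertions in 4 masses and 1 in the nodes. Fas, which is not among the 12, had 18 against 0.849 in 9 of 9 masses and 9 against 0.597 in 6 of 6 nodes, and was called in both, with 13 and 3 insertions left when shared positions were kept only in the PB sample with most reads. Basp1, Pou2f2, Ptprc, Mef2c, Slamf6, Erp44, Tmem131 and Gna13 were the others of the 12 with the smallest p. Of the 28 Pou2f2 insertions in the masses, 15 were in MES MASS 8. Apart from Cd74, each gene named in this paragraph was called in both groups by the Wald test. For 2 of them the call in MES LN rested on few insertions. Slamf1 had 4 against 0.371 expected there (Wald, Bonferroni p = 0.022), and Slamf6 had 5 against 0.398 (Wald, Bonferroni p = 1.7e-04).

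**Figure D4:**
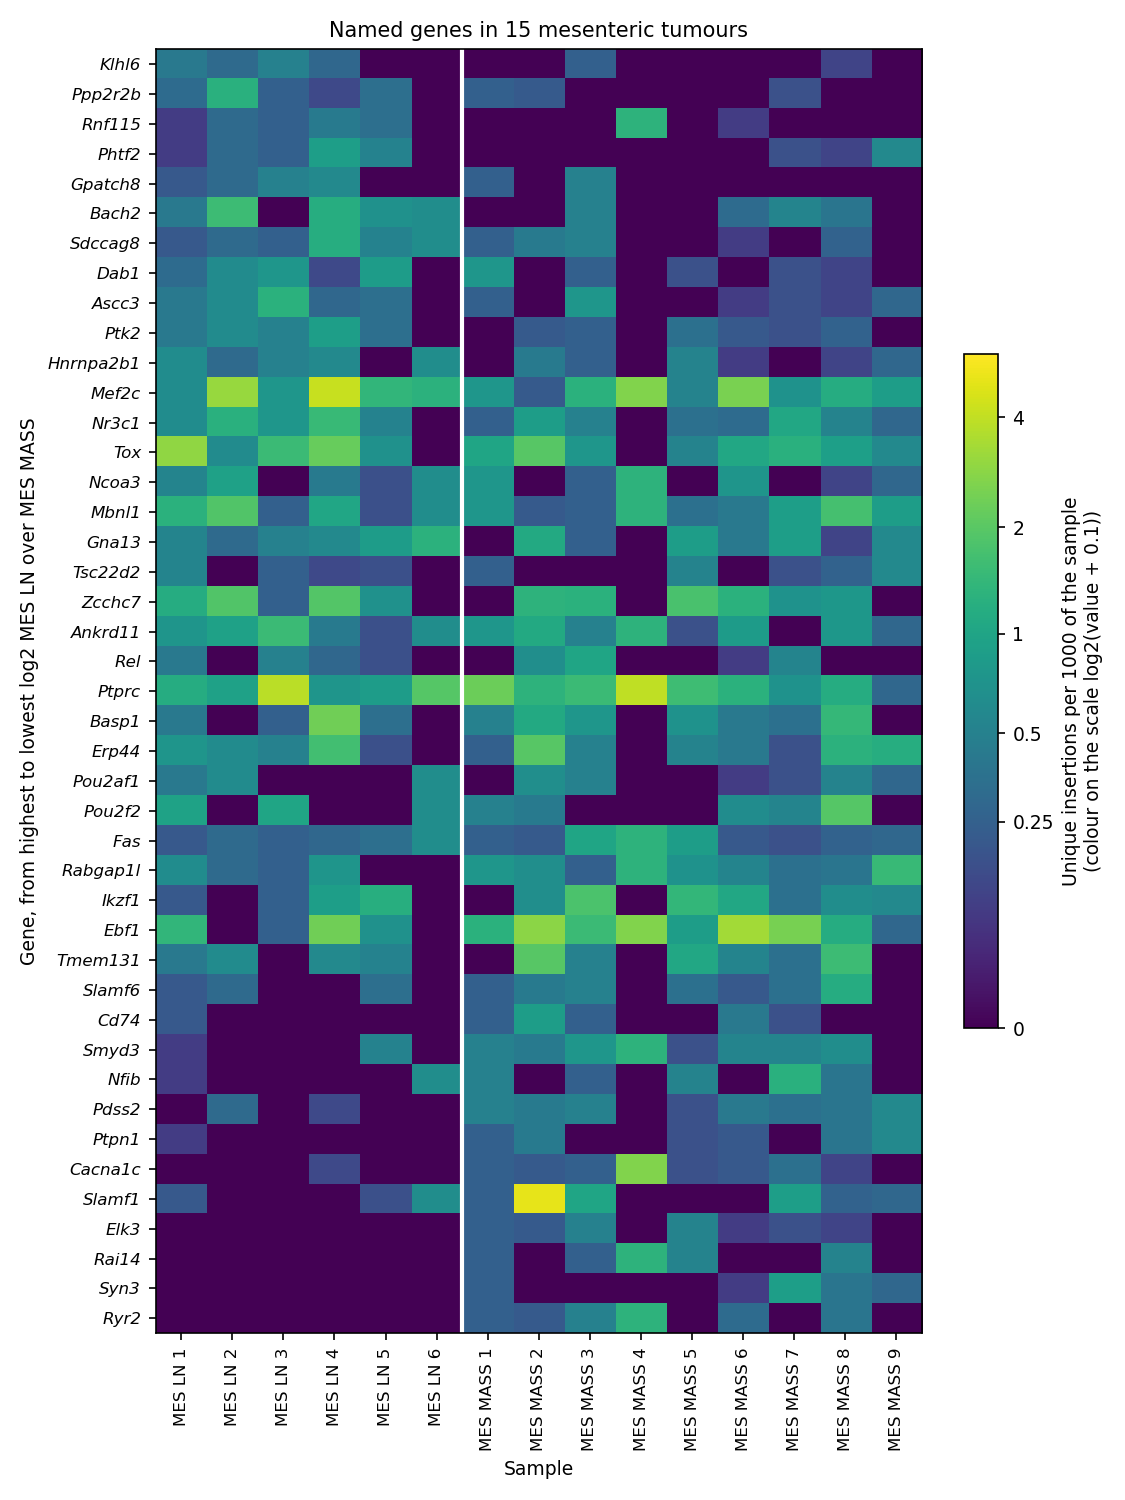
Unique insertions per 1000 insertions of the sample for the genes named for their difference, their excess or their recurrent top-10 insertions, in 6 MES LN (left of the white line) and 9 MES MASS tumours, with the colour on the scale log2(value + 0.1). Genes run from the highest to the lowest log2 difference of MES LN over MES MASS, and the middle rows, such as Ptprc and Mbnl1, are filled in all 15 tumours.

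The most covered insertions lay in genes more often than other insertions. Of the 150 top-10 insertions, 116 were in a gene and 34 between genes. Of the former, 110 were intronic, 5 in a non-coding part of an exon and 1 in a coding exon, that of Ctsh in MES LN 3. The share in genes was 85 ± 10.5% in MES LN and 72.2 ± 23.3% in MES MASS (SD, n = 6 and 9), 26 and 12.9 percentage points above all insertions of the same samples. Over both groups the excess was 18.1 points, seen in 13 of 15 tumours (two-sided exact sign-flip permutation test, p = 0.00482). By group the exact p was 0.0313 for MES LN, the smallest that 6 samples allow, and 0.125 for MES MASS, and the excess did not differ between the groups beyond their spread (difference 13.1 points, exact permutation p = 0.218). The transposon lay on the strand of the gene in 52 of the 116.

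These 116 insertions fell in 81 genes, and 10 genes held a top-10 insertion in at least 2 of the 15 tumours. Besides Gna13 and Fas, Ebf1 did so in MES MASS 5, 7 and 8, and Rel, an NF-kB subunit, in MES LN 5, MES MASS 3 and MES MASS 6. Pou2af1, the coactivator of Oct-2, held 6.99% of the reads of MES LN 2 and 1.66% of those of MES MASS 8. Rabgap1l was among the top-10 of MES LN 2 and MES MASS 4, the nuclear receptor coactivator gene Ncoa3 of MES LN 6 and MES MASS 1, Tsc22d2 of MES LN 3 and MES MASS 5, and Cd74 of MES LN 1 and MES MASS 7. Ebf1 was the one of these named genes without a top-10 insertion in MES LN, and it was among the 50 most covered in 2 MES LN and 5 MES MASS tumours. MES LN 2 had 2 top-10 insertions in Traf3, an inhibitor of alternative NF-kB signalling, with 6.18 and 5.35% of its reads, and MES LN 4 had top-10 insertions in Mef2c (3.20%) and in Tnfaip3, which encodes the NF-kB inhibitor A20 (1.94%).

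Positions of strong insertions were often listed in further samples. Of the 150 top-10 positions, 56 (37.3%) were also found in another PB sample, against 9.24% of all insertions of the 15 tumours. The share was higher among top-10 insertions in 15 of 15 tumours, by 28.2 ± 11.4 points (SD; two-sided exact sign-flip permutation test, p = 6.10e-05, the smallest possible). In the other sample such a position had a median of 5 reads, or 0.269% of the reads in the tumour itself, and in 3 cases it had more. In 46 of the 56 it stayed below 5%. Only the Fas position of MES LN 3 and MES MASS 3 was in the top-10 of more than 1 of the 15 tumours. How a position came to be listed in several samples was not tested.

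**Figure D5:**
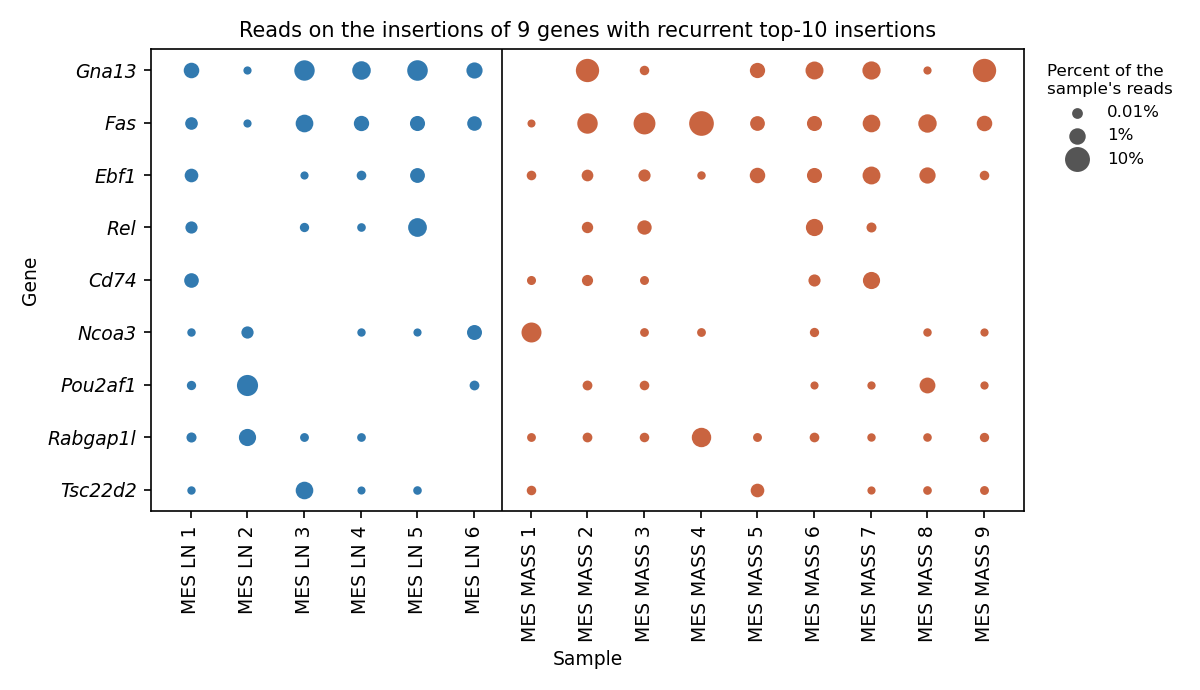
Percent of each sample's reads (area of the points grows with the value) on all insertions in the 9 named genes with recurrent top-10 insertions, by sample (x axis) and gene (y axis), with MES LN in blue and MES MASS in orange and no point where a gene had no insertion. Fas has a point in all 15 tumours and Gna13 in 13, with the largest points of Fas in masses.

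The genes of lymphoid pathways, taken as lists, are given by their counts in the gene test. Of 17 tested B-lineage transcription factors, 1 (Bach2) had an unadjusted p below 0.05, towards MES LN, and 0 towards MES MASS, with a median log2 difference of -0.22. Of the genes of B-cell receptor signalling, such as Ptprc, Lyn, Malt1 and Inpp5d, 10 were tested (median 0.10). Of the NF-kB pathway 4 were tested (Traf3, Nfkb1, Rel and Tbl1xr1), all on the MES LN side (median 0.25), and of homing and confinement also 4 (Gna13, Elmo1, Dock2 and Cxcr5; median -0.086). Death receptor, apoptosis and cell cycle genes had 4 tested (median -0.092) and JAK-STAT genes 1. All 6 tested Notch pathway genes, among them Maml2, Fbxw7, Adam10, Rbpj and Notch2, were on the MES MASS side (median -0.53), and 12 of 18 tested chromatin regulators were (median -0.34). In these 7 lists, 0 genes had an unadjusted p below 0.05, where the shares over all 1119 genes were 0.983% towards MES LN and 2.41% towards MES MASS, so such counts in lists of this size are near the background. Over all 1119 genes, 564 were on the MES LN side and 555 on the MES MASS side, with a median of 0.0016. Whether the genes of a list lay on one side more often than this was not tested. By the excess test, which called 1.14% of all genes in MES LN and 1.76% in MES MASS, 10 of 29 B-lineage factors were called in MES LN and 13 in MES MASS. Of 27 B-cell receptor genes on the chromosomes kept these were 3 and 6, of 25 NF-kB genes 4 and 5, and of 23 homing genes 4 and 4. Of 22 death receptor, apoptosis and cell cycle genes 2 and 4 were called, of 15 Notch genes 0 and 5, of 30 chromatin regulators 3 and 5, and of 18 JAK-STAT genes 0 and 0.

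Single genes of these lists are given by their counts. Fbxw7, which marks Notch and other proteins for degradation, had 6 insertions in 4 MES LN tumours and 21 in 8 MES MASS tumours, with a log2 difference of -1.22 ± 0.67 (SE; edgeR, unadjusted p = 0.0682). The chromatin remodelling subunit gene Arid1b had 24 in 6 and 19 in 8 (log2 0.89 ± 0.53, unadjusted p = 0.0923). The B-cell factors Tcf4 and Foxp1 had 15 and 33, and 18 and 29. Elmo1, which acts in cell migration with Dock2, had 25 insertions in 6 MES LN tumours and 43 in 9 MES MASS tumours, and so was hit in all 15. The chemokine receptor gene Cxcr5, which guides B cells to follicles, had 4 and 6. Casp8, the caspase downstream of Fas, had 6 insertions in 3 MES LN tumours and 2 in 1 MES MASS tumour.

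Insertions in genes of other cell types are given as rates. Per 1000 insertions, the 29 B-lineage factors together had 8.75 ± 2.81 in MES LN and 8.91 ± 2.31 in MES MASS (SD, n = 6 and 9). The 17 T-lineage genes had 1.72 and 1.45, of which Tox was the one member tested and the one called by the excess test in each group. Myeloid genes had 0.0983 and 0.134, fibroblast genes 0.361 and 0.293, endothelial genes 0.277 and 0.386, adipocyte genes 0.630 and 0.499 and intestinal epithelial genes 0.339 and 0.216. These 5 lists had 0 genes called by the excess test in either group, which for lists of 9 to 11 genes is near the 1.14 and 1.76% of all genes. The lymphoid JAK-STAT list, with 0.868 and 0.714 insertions per 1000, was above each of these 5 lists and also had 0 genes called. Lists differ in the number and length of their genes.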

How the data were processed

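Insertion sites of 15 PB tumours (6 MES LN, 9 MES MASS) and 12 PB tails were analysed. Each sample had a code of its own in its title and was taken as a separate mouse, which the label does not state. Sheared DNA had been put through splinkerette PCR of the transposon ends and 75 bp paired-end MiSeq sequencing. Per position, the authors deposited counts of reads that are not normalized, with 2 reads as the lowest value, on mm10. Aligner, insertion caller and read filters are not given in the sources used here, and they decide which weakly read positions were listed. The normalized coverage in 1 more column of per-sample values was left unused.

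Of 86189 lines of the tumours, 2563 on sex chromosomes and 7203 on chromosome 14, taken as the donor chromosome, were left out. Of the other 76423, 75756 lay on a TTAA, 45 were moved to a TTAA within 5 bp and 622 were dropped. Each TTAA was counted at most once a sample. Genes were RefSeq genes of GRCm38 with an NM or NR transcript, from start to end. Read totals of the tumours ran from 84981 to 298875. The p-values of the permutation and edgeR tests measure the spread between samples. Those of the excess test rest on the insertions of a group pooled over its samples, and do not measure that spread.

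Values of samples were compared with exact permutation tests, two-sided, and insertions per gene with edgeR quasi-likelihood tests that took the insertions of a sample as library size. The SE of a log2 difference is approximate, the log2 value over the square root of F. In the excess test, after the null model of the study, the expectation was the insertions on a chromosome times the gene's share of its TTAA sites. The edgeR, excess and permutation tests were tested on simulated data. Alternatives were read minima, name form, filters, normalization, DESeq2, gene borders, other indices, leaving out each sample and, added with the data in view, the handling of positions shared or close together, the separated name form and the title numbers as a block.

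The tumours and the gene lists were chosen with earlier results of these data known. Named genes are the 10 with the smallest p in each direction, the 12 with the smallest excess p in each group among those hit in at least 3 samples, those with a top-10 insertion in 2 or more tumours, those holding the most covered insertion of a tumour, and up to 5 members with most insertions from each of 8 lists. One of the genes so selected is left out of the text, and Ctsh, Cblb, Zbtb20, Lpp and Dlg2 were added after their values were seen. Software was Python 3.11.15 (numpy 2.4.6, pandas 2.3.3, scipy 1.17.1, matplotlib 3.10.9) and R 4.3.3 (edgeR 4.0.16, DESeq2 1.42.0).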

Additional observations from a re-analysis of the deposited data

Results flagged for a closer look

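Samples far from the others of their group were sought with Dixon's test in 30 sets of values, and 3 stood apart, where chance gives about 1 in 20. Slamf1 in the masses had 5.05 insertions per 1000 in MES MASS 2, with a gap to the next sample of 0.80 of the whole range. Slamf1 in the nodes had its highest value, 0.649 per 1000, in MES LN 6, and Fas in the nodes had 0.649 per 1000 in the same sample. Both of these are 1 insertion among the 1542 of MES LN 6, the smallest total of the nodes.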

How the results depend on the processing

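No difference between MES LN and MES MASS at the level of samples passed the threshold under any alternative, but the sign of these small differences was not stable. The difference in insertions per sample (112) turned to -579 with at least 10 reads and -330.5 when rarefied to the lowest read total, and ran from -754 to 827 when each sample was left out. The top-10 share (-4.81 points) was 3.40 with the 50 most covered insertions and ran from -11.0 to 2.41 with samples left out. The effective number of insertions (log2 difference 0.42) was -0.18 for the Shannon index and -0.15 without shared positions, and 0.094 to 0.89 with samples left out. The gene body share ran from -0.69 to 0.43 points and the distance to the start site from -4.75 to 1.87 kb.

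Genes called between the groups stayed at 0 in all alternatives, filters, tools and samples left out, except without MES MASS 6, which gave 1 (range 0 to 1). The counts of genes with excess insertions moved more. For genes with excess insertions in PB MES LN the 254 became 100 (exact Poisson), 650 (Benjamini-Hochberg), 37 (presence per sample) and 59 (at least 10 reads), and ran from 149 to 237 with samples left out, 149 without MES LN 1 and 153 without MES LN 4. For genes with excess insertions in PB MES MASS the 391 became 157, 1018, 103 and 146, and ran from 274 to 384. The tail comparisons and, over both groups, the excess of most covered insertions in genes kept their direction and passed the threshold in every alternative run, except for the tail comparisons within the separated names (19.7 and 31.2 points, where p below 0.05 cannot be reached). Log2 differences were recomputed for 25 genes, the 20 with the smallest p and Gna13, Fas, Ebf1, Fbxw7 and Arid1b. Of these 1 passed the threshold, Slamf1 without MES MASS 6. The labels do not say which tumours belong together, and the replicate numbers, given in accession order, do not pair them, so samples were not paired. The titles carry 2 numbers before a letter, whose meaning is not given in the sources used here, and 5 tumours share both numbers across the groups. Among these, the top-10 share was 10.3% in MES LN 1 against 22.7 and 15.3% in MES MASS 2 and 3, and 61.0% in MES LN 2 against 92.5% in MES MASS 4. With these numbers as a block, chosen after seeing the data, edgeR called 0 genes (6 and 12 at an unadjusted p below 0.05), and the log2 differences of Gna13 (-0.25), Rnf115 (-0.29) and Sdccag8 (-0.75) turned their sign. Only 2 of the 11 number pairs occur in both groups, so the group difference in this fit comes from these 5 tumours. It is no check of the difference over all 15. The presence of Fas, in every tumour, gave a difference of 0.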

Other observations

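Chromosome 14, which was left out of all comparisons, held 9.70 ± 3.41% of the autosomal insertions of MES LN (SD, n = 6) and 9.94 ± 3.53% of those of MES MASS (SD, n = 9), a difference of -0.24 points (exact permutation test, two-sided, p = 0.934). In the tails it held 13.6 ± 2.22% (SD, n = 12), more than in MES LN (exact permutation p = 0.0148) and in MES MASS (exact permutation p = 0.00935). The tails are shared by both comparisons.

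Of 22211 genes, 10 were hit in all 15 tumours. Of these 10, 5 were Mef2c, Ptprc, Mbnl1, Elmo1 and Fas. Others were the ubiquitin ligase gene Cblb, Zbtb20, Lpp and Dlg2, which were chosen after their values were seen. Elmo1 is 518 kb long, with 7.49 insertions expected in MES LN and 10.8 in MES MASS. Fas was hit in MES LN 2 and in MES MASS 1 by 1 insertion of 2 reads each. The one in MES MASS 1 had the position and strand of the insertion with 17907 reads in MES MASS 4. With each shared position kept only where it had most reads, Fas was hit in 3 of 6 nodes and 8 of 9 masses. Mbnl1 was then hit in 5 of 6 and 8 of 9, while Mef2c, Ptprc and Elmo1 were still hit in all 15. How many genes random placement would put in all 15 tumours was not computed.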
